A study of Mus musculus with 12 samples.

Results

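The genes described here are 10 enzymes that write or erase methylation of lysine 9 on histone H3 (H3K9) in mouse morulae. The methyltransferases are Suv39h1, Suv39h2, Setdb1, Ehmt1 and Ehmt2, and the demethylases are Kdm4a, Kdm4b, Kdm4c, Kdm4d and Kdm3a. Every probe that carries one of these symbols was taken, which gave 15 probes for 10 of the 18327 named genes on the array. The siXist clones (4 embryos) were male morulae made by moving a Sertoli cell nucleus into an enucleated oocyte, and they received an siRNA against Xist 6 to 7 h after activation. The siCont clones (4 embryos) were made in the same way, were also male, and received a control siRNA at that time. The IVF embryos (4) came from in vitro fertilisation without an siRNA, and 2 were female (embryos 2 and 4) and 2 male (embryos 1 and 3). All were of C57BL/6 and DBA/2 F1 background, were grown for 72 h in KSOM medium, and gave 1 embryo per single-colour Agilent array after a pair of amplification rounds. The submitters call the clones biological replicates, and whether embryos of a class shared a donor animal, a mating or a culture drop is not given in the sources used here, so p-values measure the spread between these embryos.

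Methylation of H3K9 marks silent chromatin. Suv39h1 and Suv39h2 place its trimethylated form on pericentric heterochromatin, Setdb1 places it on retroelements together with Trim28, and Ehmt1 and Ehmt2 (GLP and G9a) form a complex that places the mono- and dimethylated forms in euchromatin. The Kdm4 enzymes remove the tri- and dimethylated forms, Kdm3a removes the di- and monomethylated forms, and trimethylated H3K9 carried over from the donor nucleus is known as a barrier to development of cloned embryos that injected Kdm4 mRNA lowers.

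Levels are log2 intensities relative to the 75th percentile of the same array (so 0 is that percentile), which makes them comparable between embryos for a probe but not between probes. Per array, 50.7% to 61.4% of probes exceeded background by the scanner software's criterion (called well above background here), and the percentile itself was 507 to 1133 intensity units. The siXist clones, the siCont clones and the IVF embryos each lay on a slide and scan of their own, so slide and class cannot be told apart, while female and male IVF embryos shared 1 slide. Fewer cells of a type and less RNA per cell cannot be told apart in a whole embryo. The brightest Xist probe averaged 1.93 ± 0.48 in siXist clones, against 4.97 ± 0.48 in siCont clones (SD, n = 4 each), while the other 3 Xist probes differed in direction, with an SD of up to 5.26 in siCont clones. Of 12 morula markers 11 were tested, and their summed level was 7.85 to 8.63 in siXist clones, 7.998 to 8.38 in siCont clones and 8.18 to 8.38 in IVF embryos. Nanog has no named probe here, and Sox2 and Eomes were above background on 1 of 4 arrays in each clone class. Eomes differed from IVF embryos by -5.97 in siXist clones (adjusted p = 0.0333) and by -5.23 in siCont clones (adjusted p = 0.0645). Cdx2 averaged 2.85 ± 1.06 in siXist clones, -1.05 ± 5.42 in siCont clones and 4.72 ± 0.36 in IVF embryos. Against IVF embryos 7 of the 11 were lower in siXist clones and 8 in siCont clones. Of 10 Sertoli cell markers 6 were tested, with summed levels of 3.11 to 3.93 in siXist clones, 3.87 to 4.64 in siCont clones and 3.59 to 4.29 in IVF embryos. The defining markers Amh and Wt1 were above background on 0 and 1 of 12 arrays, while Gata4, Clu, Dhh and Tjp1 were on 4 of 4 in each class. Against IVF embryos 4 of the 6 were higher in siCont clones and 2 in siXist clones, none at an adjusted p under 0.05. Clu differed from IVF embryos by 1.43 in siCont and 1.41 in siXist clones, and Sox9 by -2.43 and -5.51. Cldn11 was above background on 4 siXist, 1 siCont and 0 IVF arrays, and so passed the filter through the siXist clones alone. It differed from IVF embryos by 1.48 in siCont and 2.15 in siXist clones. Fshr, which was not tested, was above background on at most 5 of 12 arrays. Of 8 markers of cumulus cells, the cells around the oocyte, 2 were tested, with summed levels of 1.72 to 2.82 in siXist clones, 1.95 to 3.10 in siCont clones and 0.92 to 2.16 in IVF embryos, set almost wholly by Amhr2. Ptx3, a matrix protein made by cumulus cells and the other of these, was above background on 0 siXist, 4 siCont and 1 IVF arrays, and averaged -8.75 in siXist clones (3 arrays, 1 outlier spot removed), -4.49 in siCont clones and -7.51 in IVF embryos (adjusted p = 0.139 for siXist against siCont and 0.127 for siCont against IVF). The part of other cells in the values below was not tested.

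No member passed the limma test at a Benjamini-Hochberg adjusted p under 0.05, taken over all 24788 kept probes, in any of the comparisons, and in siCont clones against IVF embryos the brightest probes of Kdm4c and Kdm3a had the smallest p-values of the members. A gene is counted by its brightest probe among those well above background on at least 3 of 4 arrays of a class, which left 9 members, all but Kdm4d. In siXist clones against siCont clones 0 of 9 members were called, where 0.0202% of all probes were, 0 had an unadjusted p under 0.05 (13.1% of all probes), and for 0 the classes did not overlap (7.52%). In siCont clones against IVF embryos 0 of 9 were called (0.387% of all probes), 2 had an unadjusted p under 0.05 (12.9%), both higher in the clones, and for 1 the classes did not overlap (9.79%). In siXist clones against IVF embryos 0 of 9 were called (0.508%), 1 had an unadjusted p under 0.05 (13.3%) and for 2 the classes did not overlap (12.3%). These counts lie near the shares for all probes. With the 8 clones pooled against the 4 IVF embryos, a comparison added after the values were seen, 0 of 9 were called (0.746%) and 3 had an unadjusted p under 0.05 (12.7%). The comparisons with IVF embryos share those 4 arrays, so their members' values are given side by side. Over all probes the called numbers higher and lower were 3 and 2, 48 and 48, and 64 and 62 for siXist against siCont, siCont against IVF and siXist against IVF, and 26 and 1, 13 and 118, and 22 and 32 in the deposited value table, whose constants per array differ.

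Among the writers of trimethylated H3K9, Suv39h1, an X-linked gene, was low in 3 of 4 siCont clones, and the classes overlapped. Its level was 1.16, 0.37, 0.68 and -0.31 in siXist clones 1 to 4, -0.64, -0.97, 0.62 and -0.60 in siCont clones 1 to 4, and 0.31, 0.98, 0.11 and 0.76 in IVF embryos 1 to 4. Of the siCont clones, 3 lay below every IVF embryo and every siXist clone, and clone 3 lay inside the range of both. The means were 0.47 ± 0.62 in siXist clones, -0.40 ± 0.70 in siCont clones and 0.54 ± 0.40 in IVF embryos (SD, n = 4 each). The difference between siXist and siCont clones was 0.87 ± 0.43 (SE, 95% interval -0.09 to 1.83, adjusted p = 0.416), an estimate above 0 with an interval that reaches it. That between siCont clones and IVF embryos was -0.94 ± 0.43 (-1.90 to 0.03, adjusted p = 0.397), and that between siXist clones and IVF embryos -0.07 ± 0.43 (-1.03 to 0.90, adjusted p = 0.961). In the value table the authors deposited, where the median of all probes was itself 0.97 between siXist and siCont clones and -1.15 between siCont clones and IVF embryos, the Suv39h1 differences were 2.00 (adjusted p = 0.153) and -2.03 (adjusted p = 0.0762). Since all clones were male, the male IVF embryos alone are the closer comparison for an X-linked gene, and against them the siCont clones differed by -0.60 (adjusted p = 0.786).

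Suv39h2, on chromosome 2, was measured by 3 kept probes whose differences did not all share a sign. On the brightest probe the level was 0.20, -0.03, -1.76 and -1.22 in siXist clones, -0.11, -0.04, 0.45 and 1.09 in siCont clones, and 0.69, 0.86, 0.32 and -2.23 in IVF embryos. Clones 3 and 4 of the siXist class lay below every siCont clone, and female IVF embryo 4 lay below every other embryo, which made the IVF spread the widest of the 3 classes. The differences were -1.05 ± 0.69 between siXist and siCont clones (-2.58 to 0.48, adjusted p = 0.511), 0.44 ± 0.69 between siCont clones and IVF embryos (-1.09 to 1.97, adjusted p = 0.822) and -0.61 ± 0.69 between siXist clones and IVF embryos (-2.14 to 0.92, adjusted p = 0.718). On the next probe the level was -0.90, -1.11, -2.02 and -1.43 in siXist clones, -0.47, -1.97, 0.25 and -0.31 in siCont clones, and -0.18, -0.40, 0.60 and 0.28 in IVF embryos. There all 4 siXist clones lay below all 4 IVF embryos, while siCont clones overlapped both. The siXist clones differed from IVF embryos by -1.44 ± 0.50 on this probe (-2.56 to -0.32, adjusted p = 0.264), and siCont clones by -0.70 (adjusted p = 0.591), a sign opposite to that of the brightest probe. The third probe was dim, above background on 3 of 4 arrays in each class, and its differences were 1.03, -1.10 and -0.07 in the same order of comparisons as for the brightest probe.

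Setdb1, on chromosome 3, had nearly equal means in both clone classes. Its level was -0.27, -0.36, -1.16 and 0.80 in siXist clones, -0.08, -0.27, 0.40 and -1.07 in siCont clones, and 0.41, 0.24, 0.36 and 0.67 in IVF embryos. The IVF embryos lay within a narrow band (SD 0.18), 3 of 4 siXist clones and 3 of 4 siCont clones lay below that band, and siXist clone 4 lay above it. The siXist and siCont clones differed by 0.01 ± 0.46 (-1.02 to 1.03, adjusted p = 0.996). Against IVF embryos the siCont clones differed by -0.67 ± 0.46 (-1.70 to 0.35, adjusted p = 0.574) and the siXist clones by -0.67 ± 0.46 (-1.69 to 0.36, adjusted p = 0.554).

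Of the pair that forms the G9a and GLP complex, Ehmt2 (G9a, chromosome 17) was lower on average in both clone classes than in IVF embryos. Its level was 2.43, 2.26, 1.67 and 1.46 in siXist clones, 2.44, 1.60, 2.58 and 1.27 in siCont clones, and 2.88, 2.56, 2.55 and 3.12 in IVF embryos. All siXist clones lay below all IVF embryos, and siCont clone 3 alone of the siCont clones reached the IVF range. The difference from IVF embryos was -0.82 ± 0.40 for siXist clones (-1.71 to 0.06, adjusted p = 0.410) and -0.81 ± 0.40 for siCont clones (-1.69 to 0.08, adjusted p = 0.428). The siXist and siCont clones differed by -0.02 ± 0.40 (-0.90 to 0.87, adjusted p = 0.989). With all 8 clones pooled the difference from IVF embryos was -0.81 ± 0.34 (-1.58 to -0.05, adjusted p = 0.363).

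Ehmt1 (GLP, chromosome 2) did not share that order. Its level was 3.56, 3.09, 3.17 and 4.26 in siXist clones, 3.71, 4.47, 4.97 and 3.16 in siCont clones, and 3.41, 4.14, 3.69 and 3.47 in IVF embryos. The 3 classes overlapped, with the highest values in siCont clones 3 and 2. The differences were -0.56 ± 0.45 between siXist and siCont clones (-1.57 to 0.46, adjusted p = 0.593), 0.40 ± 0.45 between siCont clones and IVF embryos (-0.61 to 1.41, adjusted p = 0.747) and -0.16 ± 0.45 between siXist clones and IVF embryos (-1.17 to 0.86, adjusted p = 0.903).

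**Figure D1:**
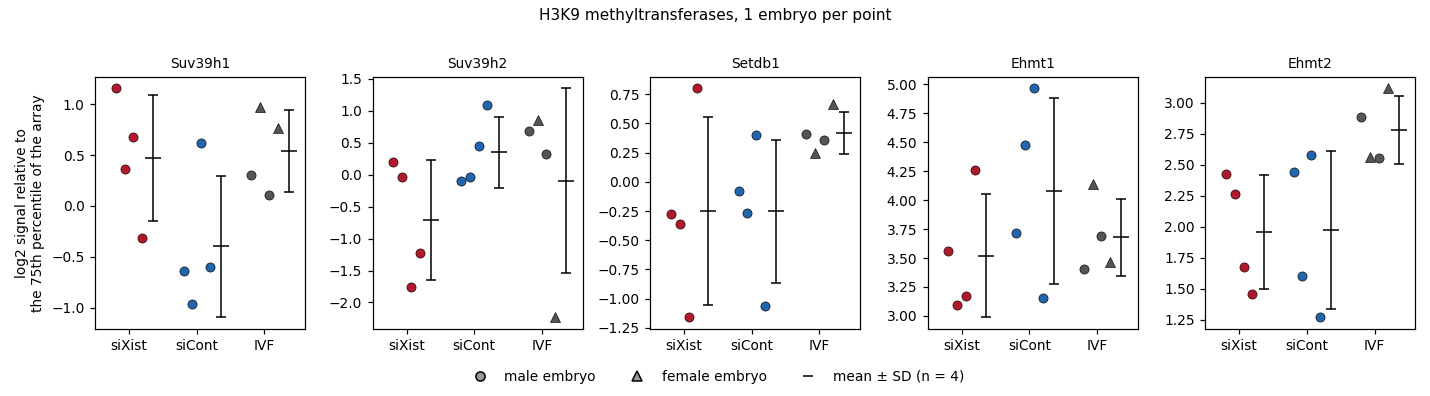
Level of the brightest probe of each H3K9 methyltransferase, as log2 intensity relative to the 75th percentile of the array, for siXist clones, siCont clones and IVF embryos. Each point is 1 embryo (circles male, triangles female) and bars are the mean ± SD (n = 4). For Ehmt2 all siXist clones (1.46 to 2.43) sit below all IVF embryos (2.55 to 3.12), and for Suv39h1 3 of 4 siCont clones (-0.97 to -0.60) sit below the other classes.

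Kdm4c, on chromosome 4, had, by its brightest probe, the smallest p-value of the 9 members in both comparisons with IVF embryos. On its brightest probe the level was 2.46, 0.97, 1.68 and 2.97 in siXist clones, 2.28, 2.73, 4.06 and 2.08 in siCont clones, and 0.43, 0.51, 0.76 and 0.65 in IVF embryos. All 8 clones lay above all 4 IVF embryos, which lay close together, and the clone classes overlapped. The share of all probes that separate 8 clones from 4 IVF embryos in this way was not computed. Taken by class, 5.09% of kept probes lay wholly above IVF embryos in siCont clones and 3.38% in siXist clones. The means were 2.02 ± 0.88 in siXist clones, 2.79 ± 0.89 in siCont clones and 0.59 ± 0.15 in IVF embryos (SD, n = 4 each). The siCont clones differed from IVF embryos by 2.20 ± 0.54, a 4.60-fold higher level (95% interval 1.99- to 10.6-fold), and the siXist clones by 1.43 ± 0.54, or 2.70-fold (1.17- to 6.22-fold). After adjustment over all probes neither passed (adjusted p = 0.139 and 0.297). With any of the alternatives for siCont clones the adjusted p lay between 0.0784 and 0.397. The siXist clones differed from siCont clones by -0.77 ± 0.54 (-1.98 to 0.44, adjusted p = 0.539). For the 8 clones together against IVF embryos the difference was 1.82 ± 0.47 (0.77 to 2.86, adjusted p = 0.139).

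SiCont clone 3, which had the highest Kdm4c level, also had the lowest 75th percentile (507) and the lowest share of probes above background (50.7%) of the 12 arrays. Without it the siCont clones still differed from IVF embryos by 1.78 (adjusted p = 0.233). The dimmer Kdm4c probe read -5.37, -7.64, -6.78 and -4.28 in siXist clones, -5.46, -5.02, -5.34 and -8.19 in siCont clones, and -7.03, -8.07, -7.35 and -7.76 in IVF embryos. It was well above background on 2 siXist, 3 siCont and 0 IVF arrays, so it holds only a bound for the IVF embryos and no fold is given from it.

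Kdm3a, on chromosome 6, was measured by a pair of probes that rest on different transcripts and read alike. On the brightest probe the level was 5.74, 4.73, 3.95 and 5.45 in siXist clones, 6.02, 4.27, 6.02 and 5.92 in siCont clones, and 4.002, 4.57, 4.27 and 3.99 in IVF embryos. Of each clone class, 3 embryos lay above all IVF embryos, and siCont clone 2 and siXist clone 3 did not. The siCont clones differed from IVF embryos by 1.35 ± 0.52, or 2.55-fold (1.14- to 5.69-fold, adjusted p = 0.320), and the siXist clones by 0.76 ± 0.52 (-0.40 to 1.92, adjusted p = 0.549). In the deposited value table, with its median of -1.15 over all probes, the siCont difference was 0.25 (adjusted p = 0.762). Without siCont clone 1, 3 or 4 the difference for siCont clones was 1.20, 1.20 and 1.23 (adjusted p = 0.390, 0.5002 and 0.410), and without clone 2 it was 1.78 (adjusted p = 0.202).

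The second Kdm3a probe read 1.66, 0.76, 0.60 and 1.49 in siXist clones, 2.17, 0.36, 1.94 and 2.35 in siCont clones, and -0.28, 0.32, 0.33 and 0.42 in IVF embryos. Here all siXist clones lay above all IVF embryos, and siCont clone 2 again lay with the IVF embryos. The differences from IVF embryos were 1.51 ± 0.48 for siCont clones (0.44 to 2.58, adjusted p = 0.242) and 0.93 ± 0.48 for siXist clones (-0.14 to 2.00, adjusted p = 0.436). The siXist clones differed from siCont clones by -0.59 ± 0.52 (-1.75 to 0.57, adjusted p = 0.623) on the first probe and by -0.58 ± 0.48 (-1.65 to 0.49, adjusted p = 0.599) on the second.

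Kdm3a and Kdm4c are known from human cell lines to respond to hypoxia through HIF, which binds the hypoxia-response core ACGTG or GCGTG, so promoters of this pair are shown with each match to that core on either strand in capitals. The pair was picked with the values known, other members may respond to hypoxia as well, and a response here was not tested. The promoters are RefSeq windows on build GRCm38.p6 from 250 bases before to 50 bases after a transcript start, printed along the gene's strand.
Kdm4c, upstream start, chr4:74242247-74242546, plus strand: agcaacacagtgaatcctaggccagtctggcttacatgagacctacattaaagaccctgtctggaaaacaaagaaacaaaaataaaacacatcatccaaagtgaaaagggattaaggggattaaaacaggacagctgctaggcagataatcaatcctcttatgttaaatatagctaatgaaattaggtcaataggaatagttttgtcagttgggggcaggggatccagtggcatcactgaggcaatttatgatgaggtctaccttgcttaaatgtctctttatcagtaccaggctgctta
Kdm4c, downstream start, chr4:74251629-74251928, plus strand: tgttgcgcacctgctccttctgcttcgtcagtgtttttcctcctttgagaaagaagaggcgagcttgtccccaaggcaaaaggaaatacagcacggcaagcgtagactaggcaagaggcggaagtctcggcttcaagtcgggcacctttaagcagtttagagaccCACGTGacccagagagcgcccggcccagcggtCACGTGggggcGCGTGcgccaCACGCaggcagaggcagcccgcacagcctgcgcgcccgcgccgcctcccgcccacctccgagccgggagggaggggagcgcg
Kdm3a, most upstream start, chr6:71632868-71633167, minus strand: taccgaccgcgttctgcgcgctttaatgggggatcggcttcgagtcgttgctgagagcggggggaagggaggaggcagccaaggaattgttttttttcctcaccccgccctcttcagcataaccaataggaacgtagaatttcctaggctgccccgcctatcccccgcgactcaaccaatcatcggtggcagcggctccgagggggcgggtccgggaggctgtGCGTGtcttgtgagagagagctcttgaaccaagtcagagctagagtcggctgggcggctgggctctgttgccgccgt
The downstream Kdm4c window held 28 CpG dinucleotides and 6 matches in 4 separate runs, with a palindromic CACGTG counted once per strand. The upstream Kdm4c window held 0 CpG and 0 matches, and the Kdm3a window held 24 CpG and 1 match. Of the other Kdm3a windows, one held 40 CpG and 0 matches and one 0 CpG and 0 matches. Of 32851 windows of this length, 43.8% held at least 1 match, and their median was 7 CpG. The 14 windows of 9 members (Kdm4b had none) held a match in 8, from 7 genes. These included members whose means were not higher in clones than in IVF embryos, with 4 matches in each of both Ehmt2 windows, 2 in a Suv39h1 window and 1 in the Setdb1 window. A match is a stretch of letters and says nothing of HIF in these embryos, and the probes do not tell which start was used.

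Kdm4a, also on chromosome 4, did not separate the classes. Its level was 3.83, 1.98, 2.23 and 3.19 in siXist clones, 3.27, 3.21, 2.17 and 3.10 in siCont clones, and 2.84, 3.13, 2.76 and 3.37 in IVF embryos. The siXist clones spanned the IVF range on both sides, and 3 of 4 siCont clones lay inside it. The differences were -0.13 ± 0.45 between siXist and siCont clones (-1.14 to 0.88, adjusted p = 0.913), -0.09 ± 0.45 between siCont clones and IVF embryos (-1.10 to 0.92, adjusted p = 0.950) and -0.22 ± 0.45 between siXist clones and IVF embryos (-1.23 to 0.79, adjusted p = 0.855). A second Kdm4a probe was above background on 2 of 4 arrays in each class and was not tested.

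Kdm4b, on chromosome 17, was dim and varied widely within each class. Its level was -1.80, -2.77, -4.43 and -1.77 in siXist clones, -1.71, -6.17, -4.10 and -2.77 in siCont clones, and -3.74, -2.32, -4.28 and -2.05 in IVF embryos. The classes overlapped throughout, and siCont clone 2 had the lowest level and was the only embryo not above background. The intervals were wide, from -1.05 to 3.04 around a difference of 1.00 between siXist and siCont clones, from -2.64 to 1.46 around -0.59 between siCont clones and IVF embryos, and from -1.64 to 2.45 around 0.40 between siXist clones and IVF embryos (adjusted p = 0.638, 0.822 and 0.872).

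Kdm4d, on chromosome 9, is the demethylase known for raising the development of cloned mouse embryos when its mRNA is injected. Its single probe read -6.72, -8.69, -9.01 and -8.78 in siXist clones, -8.28, -3.21, -7.81 and -8.18 in siCont clones, and -8.30, -8.17, -8.53 and -7.77 in IVF embryos. It was well above background on 1 of 12 arrays, that of siCont clone 2, so it was left out of the fit, and no difference between classes was measurable.

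**Figure D2:**
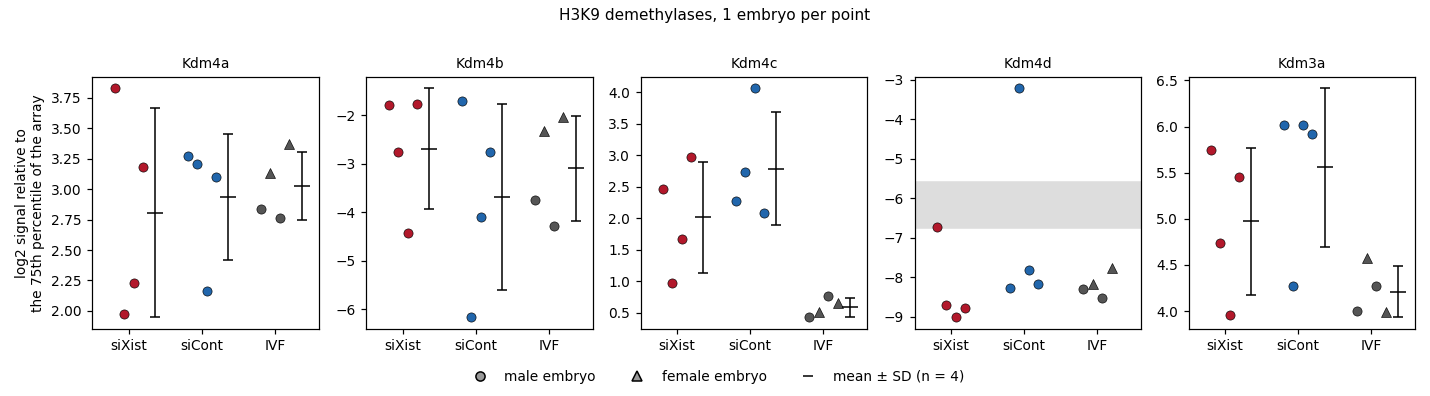
Level of the brightest probe of each H3K9 demethylase, as log2 intensity relative to the 75th percentile of the array, for siXist clones, siCont clones and IVF embryos. Each point is 1 embryo (circles male, triangles female) and bars are the mean ± SD (n = 4), left out for Kdm4d, where the grey band spans the 12 arrays' lowest values well above background. All 8 clones (0.97 to 4.06) sit above all IVF embryos (0.43 to 0.76) for Kdm4c, and 1 embryo lies above the band for Kdm4d.

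By role, the 5 methyltransferases had a median difference of -0.02 between siXist and siCont clones, -0.67 between siCont clones and IVF embryos and -0.61 between siXist clones and IVF embryos. The medians of all named genes were -0.24, -0.02 and -0.25 in the same comparisons. All 5 differences were negative for siXist clones against IVF embryos, and 3 of 5 were for siCont clones. In the siXist comparison, where the median of all named genes was itself -0.25, Suv39h1 (-0.07) and Ehmt1 (-0.16) lay above that median. The 4 demethylases tested had medians of -0.36, 0.63 and 0.58, with 3 of 4 positive for siXist clones against IVF embryos and 2 of 4 for siCont clones. The methyltransferase medians thus lay below those of all named genes in both comparisons with IVF embryos and the demethylase medians above, with 0 members called. In siCont clones only Kdm4c and Kdm3a of the tested demethylases were higher. The 7 other H3K9 demethylases did not share this, with medians of -0.20 (5 negative) for siCont clones and -0.12 (4 negative) for siXist clones against IVF embryos. Prdm2, the other methyltransferase tested, was higher by 0.47 and 0.55.

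**Figure D3:**
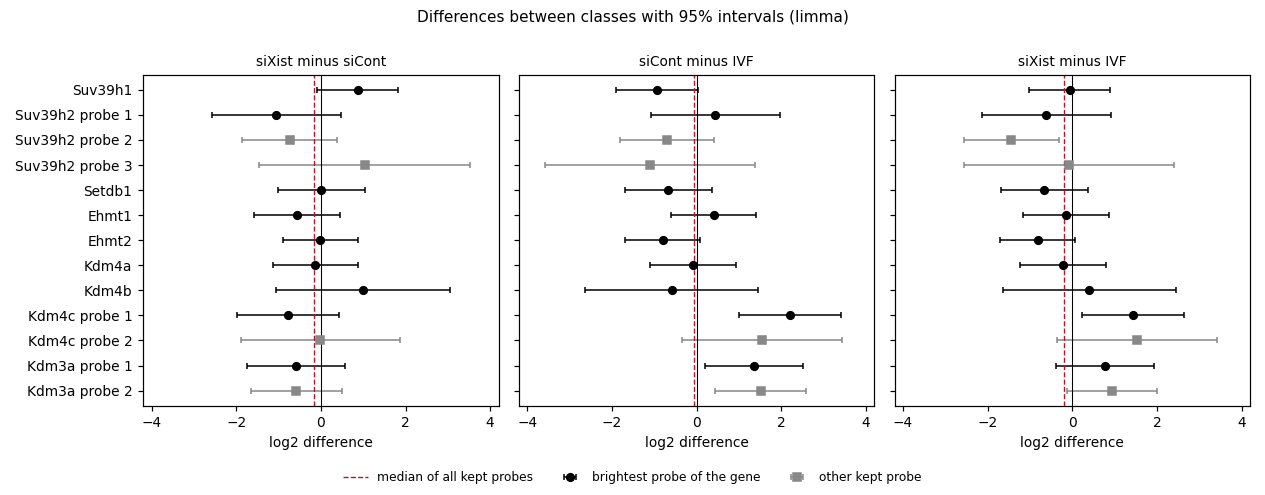
Differences of every kept member probe (log2, with 95% intervals from the limma fit) for siXist minus siCont, siCont minus IVF and siXist minus IVF, positive where the class named first is higher. Black points are the brightest probe of a gene, grey squares its other probes, and the dashed line is the median of all kept probes. The intervals are not adjusted for the number of probes. Those of the brightest Kdm4c probe exclude 0 in both comparisons with IVF embryos (2.20 and 1.43, adjusted p = 0.139 and 0.297), while the grey Kdm4c probe was above background on 0 IVF arrays. Intervals of both Kdm3a probes in siCont minus IVF and of Suv39h2 probe 2 in siXist minus IVF exclude 0 as well.

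Most members, like most kept probes, varied more between clones than between IVF embryos. Members are counted here by their brightest probe, while the shares cover every kept probe, dim ones included. The SD over 4 embryos exceeded that of IVF embryos for 8 of 9 members in siXist clones, where 67.1% of all probes did so, and for 8 of 9 in siCont clones (72.4% of all probes). Suv39h2 was the exception in both. The median SD of the members was 0.80 in siXist clones, 0.70 in siCont clones and 0.28 in IVF embryos, and over all kept probes it was 0.74, 0.82 and 0.55. Of the siCont clones, clone 3 had the highest Suv39h1, Setdb1, Ehmt1, Ehmt2 and Kdm4c and the lowest Kdm4a.

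**Figure D4:**
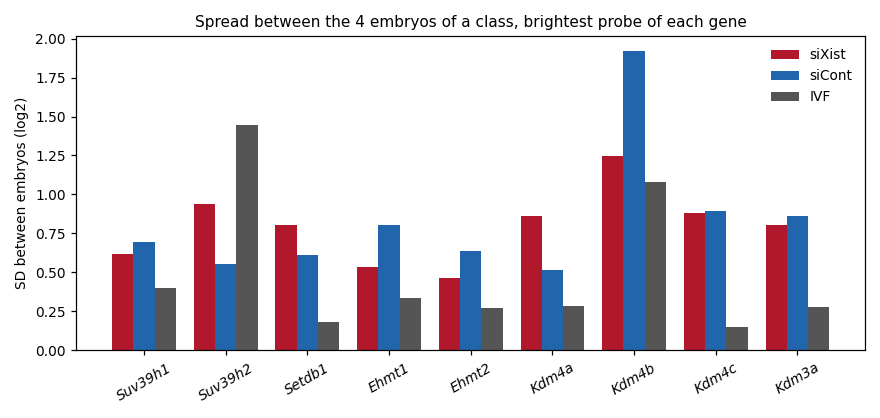
SD of the level between the 4 embryos of a class (log2 units, bars from 0) for the brightest probe of each tested member, in siXist clones, siCont clones and IVF embryos. The clone bars exceed the IVF bar in both clone classes for 8 of the 9 genes, and Suv39h2, with an IVF SD of 1.44, is the exception.

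Across the 12 embryos, Pearson's r between Kdm4c and Kdm3a was 0.70, and it was 0.34 after the mean of each class was taken out. Ehmt1 and Kdm4c had r = 0.63 over the 12 embryos and 0.84 within classes, and Kdm4b and Kdm3a had 0.45 and 0.79. These are descriptions over 12 arrays that share their scaling, and pairs were chosen after the values were seen. Of all other named genes, the one with the highest r over the 12 arrays was Slc25a33 for Suv39h1 (0.84), Zfp516 for Suv39h2 (0.91), Cchcr1 for Setdb1 (0.92), BC048507 for Ehmt1 (0.97) and Mterf4 for Ehmt2 (0.93). It was Ypel3 for Kdm4a (0.91), Wdr76 for Kdm4b (0.92), P4htm for Kdm4c (0.96) and Olfr1509 for Kdm3a (0.91), each the top of 13531 named genes with a kept probe.

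In IVF embryos, female minus male differences were computed as the size of a sex effect within 1 slide, and 0 of 9 members were called (0.0161% of all probes) or had an unadjusted p under 0.05 (1.54%), while for 3 of 9 females and males did not overlap (28.3%). Suv39h1 averaged 0.87 in females, against 0.21 in males (n = 2 each), and both females lay above both males. The difference was 0.66 ± 0.61 (-0.70 to 2.02, adjusted p = 1.00). Kdm4b was also higher in both females (-2.32 and -2.05) than in both males (-3.74 and -4.28), with a difference of 1.82 ± 1.30 (-1.07 to 4.72, adjusted p = 1.00). Kdm4a was 3.13 and 3.37 in females and 2.84 and 2.76 in males. With 2 embryos of a sex these intervals span large differences either way.

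The other H3K9 enzymes, readers and partners tested gave 0 calls as well. At most 0.746% of all probes were called in any comparison, so 0 lies near that share. Of 4 other H3K9 methyltransferases only Prdm2 was tested, and it differed by 0.08 between siXist and siCont clones and by 0.47 between siCont clones and IVF embryos. Of 7 other demethylases 7 were tested and 0 were called in any comparison. Phf2, which demethylates H3K9, averaged -2.57 in siXist clones, against -5.40 in siCont clones, where it was above background on 2 of 4 arrays, with a difference of 2.83 ± 1.20 (adjusted p = 0.365). Of 14 readers and partners 14 were tested and 0 called, with median differences of -0.19 between siXist and siCont clones, -0.19 between siCont clones and IVF embryos and -0.39 between siXist clones and IVF embryos. Among them Chaf1a, a subunit of the chromatin assembly factor CAF-1, differed by 0.57 ± 0.28 between siXist and siCont clones (adjusted p = 0.410) and by -0.56 ± 0.28 between siCont clones and IVF embryos (adjusted p = 0.432). Tasor, the scaffold of the HUSH silencing complex, differed by -1.06 ± 0.53 between siXist and siCont clones and by 1.07 ± 0.53 between siCont clones and IVF embryos (adjusted p = 0.416 and 0.428). Mphosph8, the HUSH subunit that binds trimethylated H3K9, differed by -1.09 ± 0.52 between siCont clones and IVF embryos (adjusted p = 0.416).

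The Magea genes, an X-linked family of testis-specific genes derepressed in mouse embryonic stem cells without G9a, gave calls against IVF embryos. Of 8 members 5 were tested. All of these but Magea5 passed the background filter through the IVF embryos alone, the class where they were high. The filter thus favoured a lower clone level, and their calls and p-values are a description only. In siXist clones Magea1, Magea5, Magea6 and Magea8 fell (4 of 5, where 0.508% of all probes were called), and Magea3 differed by -5.73 (adjusted p = 0.0517). In siCont clones Magea1, Magea3, Magea6 and Magea8 fell (4 of 5, 0.387% of all probes), and Magea5 differed by -3.63 (adjusted p = 0.0911). Between siXist and siCont clones 0 were called. Against the male IVF embryos only, an alternative added for this family after its values were seen, 0 were called in either clone class and all 5 differences stayed negative in both. With 1 embryo left out, 1 to 5 were called for siXist clones (1 without IVF embryo 1 and 2 without IVF embryo 2, siXist clone 2 or siXist clone 3) and 3 to 4 for siCont clones. Magea8 lay between -8.95 and -6.61 in siXist clones and between -8.39 and -7.76 in siCont clones, against -3.36 to 3.97 in IVF embryos, whose females averaged 2.16 and males -1.46. It was above background on 0 arrays of either clone class. In siXist clones it was at least 120-fold lower than the mean of the IVF embryos (adjusted p = 0.00614), at least 51.9-fold without IVF embryo 2 and at least 34.2-fold against the mean of the males (adjusted p = 0.0944). In siCont clones the bounds were at least 80.0-fold lower (adjusted p = 0.00660), 34.6-fold without IVF embryo 2 and 22.9-fold against males (adjusted p = 0.116). Magea1 and Magea6 were above background on 0 siCont arrays. They were at least 83.4-fold and 53.9-fold lower there than in IVF embryos (adjusted p = 0.0126 and 0.0116), 40.0-fold and 25.5-fold without IVF embryo 2, and 30.2-fold and 15.7-fold against males. For these, a bound sets the IVF mean against each clone array's lowest signal well above background. The adjusted p-values printed beside the bounds belong to the differences of the limma fit, which use the dim clone values, and not to the bounds. Females and males differed by a median of 2.96 in the 5 genes within IVF embryos (0 called, 3 with an unadjusted p under 0.05). Near-identical copies in the family may share probes, and the list was chosen with earlier results of these data known, so its direction is not independent evidence. Ehmt2 itself was not called in either comparison.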

How the data were processed

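Amplified RNA of 12 single morulae was measured, 1 per array. Per the file headers, the authors' scanner files give an intensity per spot, read by Agilent Feature Extraction 10.5.1.1 with a grid built on mm9:NCBI37:Jul2007, and the processed signal is background-subtracted within an array. The authors also deposited a value table in log2 units. Set against the scanner files, it holds log2 processed signal centred on the median of every probe and shifted by 1 number per array, within 0.01 for 97.6% of values. What sets that number is unknown. Its column medians were 0.01, 0.54, -0.18 and -0.22 in siXist clones, -0.05, -0.72, -1.62 and -0.12 in siCont clones, and 0.56, -0.01, 0.75 and 0.32 in IVF embryos.

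From the log2 processed signal the 75th percentile of the non-control spots was subtracted per array, after removal of outlier spots, and spots of the same probe were averaged (0 were saturated). Accessions without versions were matched to a RefSeq table (GRCm38.p6), which named 26888 of 41174 probes (65.3%). Kept probes were well above background on 3 or more of the 4 arrays of any class. The 24788 kept probes entered 1 limma fit (version 3.58.1, R 4.3.3) of class means plus a sex term within IVF embryos (8 residual degrees of freedom), tested two-sided at a Benjamini-Hochberg adjusted p of 0.05. The tests were checked on simulated data. Precision is limited by 4 arrays a class. All members are named, each by its brightest kept probe, and at most 3 genes of each other list, those with the smallest p. The members and lists were chosen with earlier results of these data known.

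The alternatives tried were quantile normalisation with or without normexp background correction (offset 50), the values of the authors' table, dropping the filter or asking for 6 arrays above background, the brightest probe or the mean of probes per gene, array weights, only the classes compared, robust eBayes with a trend, a floor for dim values, a replicate block, male IVF embryos only, and each array left out in turn. Same-numbered embryos did not deviate together (correlations from -0.14 to 0.07 over probes), so numbers were not taken as pairs. Python 3.11.15 with matplotlib 3.10.9 drew the figures.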

Additional observations from a re-analysis of the deposited data

Results flagged for a closer look

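Among 45 sets of 4 embryos of a class, 1 for each of the 15 member probes, 6 held an embryo that stood apart from the other 3 by Dixon's criterion, where chance gives about 1 in 20. Over all probes on the array 8.91% of such sets held one, and over the kept probes 7.22%. Of the 6, 3 were sets in which some arrays of the class were not well above background. In siCont clones these were clone 3 for the brightest Kdm4a probe (2.17, below the other 3), clone 2 for the brightest Kdm3a probe (4.27, below the others), clone 4 for the dimmer Kdm4c probe (-8.19, below the others and not well above background) and clone 2 for Kdm4d (-3.21, above the others and the only embryo above background). In siXist clones it was clone 1 for Kdm4d (-6.72, above the others but not above background). In IVF embryos it was male embryo 1 for the second Kdm3a probe (-0.28, below the others).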

How the results depend on the processing

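Of 860 recomputed values for 35 results, 818 kept their direction and their side of the threshold and 42 changed sign, none of them a call, and 0 members were called in any comparison under any alternative run. Kdm4c was higher in siCont clones and in siXist clones than in IVF embryos under 25 of 25 alternatives each (1.104 to 2.44 and 1.11 to 1.78), with an unadjusted p under 0.05 in 25 and 20 of them, and Kdm3a was higher in siCont clones under 25 of 25 (0.25 to 1.78), with 18. Several alternatives cannot move the Kdm4c difference, only its SE and p. For siCont clones it stayed 2.20 with no filter, with 6 arrays above background, with brightest probes only and with only the classes compared. Robust eBayes, the floor and the block also left it there. The same holds where the embryo left out belonged to neither class compared. Counts of kept signs, also over all 35 results, thus include outcomes fixed in advance. The authors' table moved the median of all probes to 0.97 for siXist against siCont, -1.15 for siCont against IVF, -0.17 for siXist against IVF and -0.67 for female against male IVF, where scaling to the 75th percentile gave -0.17, -0.06, -0.21 and 0.03. Members' values in that table move with those medians.

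For siXist against siCont clones, signs changed in the authors' table for Suv39h2 (0.0818), Ehmt1 (0.58), Ehmt2 (1.12), Kdm4a (1.00), Kdm4c (0.36) and Kdm3a (0.55), with normexp for Setdb1 (-0.11), Ehmt2 (0.11) and Kdm4a (0.0947), with quantile normalisation for Ehmt2 (0.24) and Kdm4a (0.11), and with array weights for Ehmt2 (0.11). Leaving out 1 embryo gave -0.34 to 0.31 for Setdb1, -0.25 to 0.19 for Ehmt2 and -0.47 to 0.15 for Kdm4a. For siCont clones against IVF embryos they changed in the authors' table for Suv39h2 (-0.66) and Ehmt1 (-0.70), with the mean of probes for Suv39h2 (-0.45), with array weights for Kdm4a (0.0279), and with male IVF embryos only for Suv39h2 (-0.15), Kdm4a (0.13) and Kdm4b (0.32). Leaving out 1 embryo gave -0.33 to 1.21 for Suv39h2, -0.20 to 0.17 for Kdm4a and -1.25 to 0.23 for Kdm4b. For siXist clones against IVF embryos they changed with normexp for Ehmt1 (0.15) and Kdm4a (0.0296), with quantile normalisation for Suv39h1 (0.0466), Ehmt1 (0.17) and Kdm4a (0.0429), and with male IVF embryos only for Suv39h1 (0.27) and Kdm4a (0.00513). Leaving out 1 embryo gave -0.30 to 0.20 for Suv39h1, -1.38 to 0.16 for Suv39h2, -0.40 to 0.0117 for Ehmt1 and -0.56 to 0.0557 for Kdm4a. For female against male IVF embryos Suv39h1 was -0.0370 in the authors' table. Beyond the shift of the medians, the cause was not tested.

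With the replicate number as a block, 0 members were called. The block leaves the Kdm4c difference between siCont clones and IVF embryos at 2.20 by construction. Its SE was 0.59 with the block and 0.54 without, and its adjusted p in the limma fit 0.271 and 0.139. Of the Magea genes 0 of 5 were called with the block in either clone class against IVF embryos, and 1 in siXist clones with only the classes compared. No value for the family was obtained at 6 arrays above background, although Magea5 was above background on 4 arrays of each class. Over the alternatives Magea8's adjusted p ran from 0.00419 to 0.0944 for siXist clones and from 0.00234 (authors' table) to 0.116 for siCont clones. Low signal limits Kdm4d, Kdm4b and the dimmer probes of Suv39h2, Kdm4a and Kdm4c.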
